A study of Mus musculus with 28 samples.

Results

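The comparison set 18 whole testes of NANOS2 KO mice, which hold no germ cells, against 2 libraries of Sertoli cells sorted from testes with germ cells at stages VII-VIII of the seminiferous cycle (group D). It used 20 of the 28 libraries of the series as the 2 sides. The spread was estimated from all 28 libraries, KO pairs and the other 8 sorted libraries included. Genes entered where their mean level was at least 5 CPM (counts scaled by the depth of their library) in the KO and at least 5 CPM in group D, after both tables had been scaled together. Of 43280 gene rows, 15777 were tested and 9878 met that rule. The levels on both sides thus chose the genes. Just inside it lay Cutc (5.00 CPM in KO and 9.56 CPM in group D) and Ccnj (13.1 CPM in KO and 5.01 CPM in group D), and just outside it Tbc1d10c (4.99 CPM in KO and 11.5 CPM in group D) and Sema6d (23.4 CPM in KO and 4.98 CPM in group D). A further 1486 genes passed 5 CPM in the KO alone, 2173 in group D alone and 2240 in neither.

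All mice had received WIN 18,446, a blocker of retinoic acid synthesis, for 7 days and then an injection of retinoic acid, which brings the tubules into step. The KO libraries are NANOS2 KO on a CD1 background, 2 for each day from 42 to 50 days after the injection (dpi). The group D libraries are RFP heterozygous and Amh-Cre-positive cells taken within the same span of days, on a C57BL/6 x 129s4/SvJae background. Amh-Cre is driven by a Sertoli promoter and switches on the red reporter by which the cells were sorted. Both KO and group D carry Sertoli as their cell type label, although the KO material was whole testis. Genotype, strain, sorting and the presence of other testis cells all differ between the 2 sides and cannot be told apart. In such bulk RNA, fewer cells of a type and less RNA per cell cannot be told apart either. No label ties the libraries of a group to different animals; p-values then reflect how far libraries vary, which may be technical variation.

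Sertoli cells are the somatic cells of the seminiferous tubule; they nurse germ cells, seal the blood-testis barrier and secrete the fluid in which sperm develop. Their transcriptome turns with the cycle of the germ cells around them. At stages VII and VIII they are known for their response to androgen, for retinoic acid signalling, for the release of mature spermatids and for the rebuilding of the barrier. Nanos2 keeps male germline stem cells, and its loss empties the tubules of germ cells while Sertoli cells stay.

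KO libraries held 1336742 to 4370138 counts and group D libraries 2686399 and 3826087. A count of 3 equals 0.64 to 2 CPM in the KO and 0.908 to 1.29 CPM in group D, counting error only. Nanos2 itself had 0 counts in each KO library and 1 count in group D replicate 2, so it does not check the genotype. The mitochondrial genome gave 0.715 to 3.24% of all counts in KO libraries, against 12.5% in group D replicate 1 and 4.61% in replicate 2. The 10 Sertoli markers summed to 12430 to 14430 CPM in KO libraries and to 11720 and 11290 CPM in group D, and all 10 passed 5 CPM on both sides. Clu alone made up most of each sum, so the sums say little of the other Sertoli markers, which moved in both directions. Markers of other cells split the sides. The 7 Leydig markers summed to 1852 to 5391 CPM in the KO and to 40.9 and 58.1 CPM in group D, where Insl3 and Lhcgr had no count. The 5 macrophage markers measured summed to 421 to 663 CPM in the KO and to 2.59 and 0.605 CPM in group D, with Cd68 and Lyz2 at 0. The 5 myoid markers stood at 512 to 725 CPM in the KO and 47.8 and 64.5 CPM in group D, the 4 stroma markers at 609 to 1056 CPM in the KO and 20.7 and 28.8 CPM in group D (Lum at 0), and the 4 endothelial markers at 58.5 to 134 CPM in the KO and 26.7 and 31.2 CPM in group D. The 4 elongating spermatid markers ran the other way, with 0 to 2.31 CPM in the KO and 1177 and 2036 CPM in group D, and the 4 spermatocyte markers had 0 to 2.01 CPM in the KO, with Piwil1 at 0, and 593 and 440 CPM in group D. The 3 round spermatid markers summed to 2.77 to 8.34 CPM in the KO and 79.3 and 118 CPM in group D, and the 4 spermatogonial markers to 16.4 to 32.7 CPM in the KO and 125 and 116 CPM in group D. Group D therefore held germ cell transcripts, and the KO held those of interstitial cells.

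Rhox5, Actn3, Stra6 and Prss35 mark stages VII-VIII in the sorted cells, and they were chosen on the group D libraries, so that their height there is no finding. In the KO the first 3 were far below group D and Prss35 was far above it. Rhox5, an X-linked homeobox gene switched on by androgen in Sertoli cells, ran at 46.3 to 123 CPM (median 70.3) in KO libraries and at 639.7 and 942 CPM in group D (log2 fold change -3.41, SE 0.21, adjusted p = 1.93e-15, edgeR quasi-likelihood with Benjamini-Hochberg adjustment). No KO library came near either group D library. Actn3, an actin cross-linker of alpha-actinin type best known from fast muscle, ran at 33.2 to 145 CPM (median 79.6) in the KO, against 647 and 828 CPM in group D (log2 fold change -3.18, SE 0.29, adjusted p = 5.61e-12). For Rhox5 and for Actn3 alike, the lowest KO library was 43 dpi replicate 2 and the highest 49 dpi replicate 1.

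Stra6, the cell surface receptor that takes up retinol from its carrier, ran at 0.503 to 22.5 CPM (median 5.37) in the KO and at 274 and 247 CPM in group D (log2 fold change -5.64, SE 0.49, adjusted p = 1.15e-12). Its KO libraries varied widely, with 2.38 and 3.20 CPM at 42 dpi, 12.3 and 10.1 CPM at 48 dpi, and 22.5 and 7.74 CPM at 50 dpi. Prss35, a secreted serine protease, ran at 250.0 to 406 CPM (median 348) in the KO and at 84.4 and 36.6 CPM in group D (log2 fold change 2.52, SE 0.24, adjusted p = 1.89e-08). Its lowest KO library exceeded both group D libraries. In GRCm38 the 4 genes lie on chromosome X from 37804842 to 37808876, chromosome 19 from 4861216 to 4877909, chromosome 9 from 58063788 to 58153996 and chromosome 9 from 86743649 to 86758443, in that order, and all are annotated as protein-coding.

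**Figure D1:**
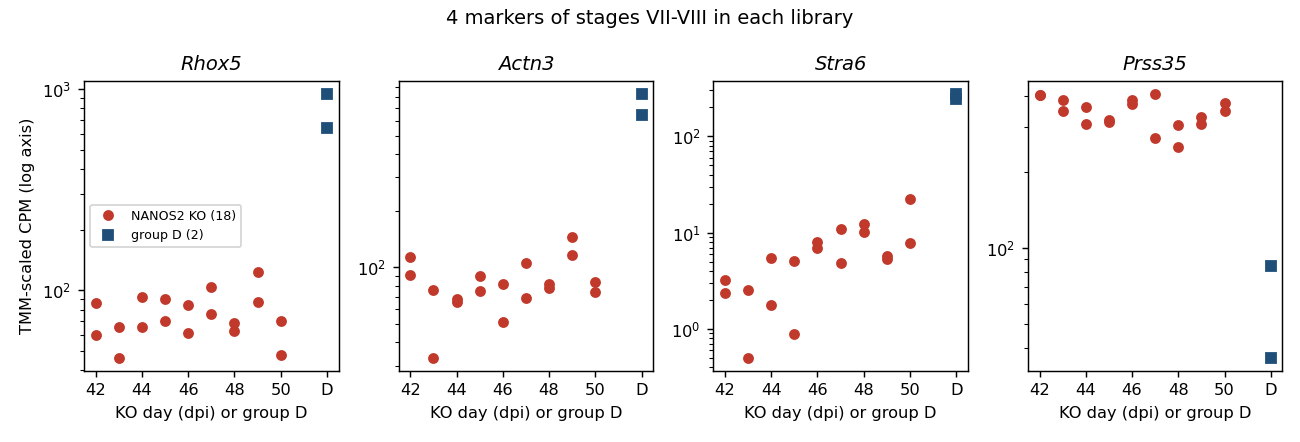
Level of 4 markers (TMM-scaled CPM, log axis) in each of 18 NANOS2 KO libraries by day after injection (red) and in the 2 group D libraries (blue squares). Rhox5 (46.3 to 123 CPM in KO), Actn3 (33.2 to 145 CPM) and Stra6 (0.503 to 22.5 CPM) lie below both group D libraries on every day, and Prss35 (250.0 to 406 CPM) lies above both.

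The promoters of Stra6 and Prss35, which moved in opposite directions here, and those of Aldh1a2 and Cyp26b1, which make and break retinoic acid and also moved in opposite directions, are shown as context. Each is the RefSeq window of GRCm38.p6 from 250 bases before to 50 bases after the start, read 5′ to 3′ on the gene's strand. The start sites of the windows of Aldh1a2, Cyp26b1 and Prss35 lie within 98 bases of the annotated gene start. For Stra6, which has 4 windows, the one farthest upstream is given, at chr9:58128838-58129137 on the plus strand. Its start site lies 65300 bases inside the gene as GENCODE annotates it, so the window does not show the promoter at the annotated gene start. The others are Prss35 at chr9:86743383-86743682 on the plus strand, Aldh1a2 at chr9:71215539-71215838 on the plus strand and Cyp26b1 at chr6:84593761-84594060 on the minus strand. Capitals mark the half-site AGAACA of steroid hormone receptors (TGTTCT on the other strand).
Stra6: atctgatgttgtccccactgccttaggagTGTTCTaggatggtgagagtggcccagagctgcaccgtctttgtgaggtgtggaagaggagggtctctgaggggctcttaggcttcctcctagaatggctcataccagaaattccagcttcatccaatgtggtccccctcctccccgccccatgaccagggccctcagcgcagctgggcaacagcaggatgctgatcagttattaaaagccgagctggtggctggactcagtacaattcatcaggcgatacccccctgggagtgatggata
Prss35: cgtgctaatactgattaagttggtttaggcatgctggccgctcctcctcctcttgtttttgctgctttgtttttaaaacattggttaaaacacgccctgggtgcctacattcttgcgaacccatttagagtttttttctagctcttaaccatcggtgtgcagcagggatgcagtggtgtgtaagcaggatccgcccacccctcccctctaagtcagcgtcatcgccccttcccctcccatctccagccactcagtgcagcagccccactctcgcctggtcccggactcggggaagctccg
Aldh1a2: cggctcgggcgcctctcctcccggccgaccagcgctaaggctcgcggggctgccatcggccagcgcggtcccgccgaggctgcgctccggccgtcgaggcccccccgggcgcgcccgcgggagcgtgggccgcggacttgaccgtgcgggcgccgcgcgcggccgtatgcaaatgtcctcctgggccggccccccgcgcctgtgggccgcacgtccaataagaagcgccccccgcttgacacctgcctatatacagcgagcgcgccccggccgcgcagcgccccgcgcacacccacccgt
Cyp26b1: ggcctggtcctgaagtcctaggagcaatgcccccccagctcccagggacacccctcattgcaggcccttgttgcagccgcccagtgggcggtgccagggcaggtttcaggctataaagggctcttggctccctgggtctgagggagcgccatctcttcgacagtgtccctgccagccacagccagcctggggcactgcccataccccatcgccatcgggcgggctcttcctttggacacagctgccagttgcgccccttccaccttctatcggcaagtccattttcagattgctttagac
On both strands, AGAACA was found 1 time in the Stra6 window and in none of the other 3. The retinoic acid receptor half-sites AGGTCA and AGTTCA were in none of the 4. Over 27025 windows of the same length, 19.0% held AGAACA, 16.0% AGGTCA and 14% AGTTCA. A match is a string of letters only, and its absence from these windows says nothing about the factor.

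Across the 9878 genes, 2726 (27.6%) were higher and 3967 (40.2%) lower in the KO at an adjusted p under 0.05 by edgeR, and the median log2 fold change was -0.18, with quartiles at -0.88 and 0.58. With a change of at least 2-fold besides, 1513 (15.3%) were higher and 2093 (21.2%) lower. In 2291 genes (23.2%) all KO libraries lay above both group D libraries, and in 3252 (32.9%) all lay below them, whether called or not. A 95% interval within 2-fold in either direction was found for 3815 genes (38.6%). In either direction 6693 genes (67.8%) were called. Over all 15777 genes tested, 4694 (29.8%) were higher and 6721 (42.6%) lower. Counts for each gene list below stand beside these shares. From here on, a single number in brackets after a gene, and any amount by which a gene is said to be higher or lower, is its log2 fold change, KO over group D.

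Of 18 genes that peak at stages VII-VIII in the sorted cells, 15 met the level rule, of which 12 were lower in the KO, 1 (Prss35) was higher and 2 were not called, with a median log2 fold change of -3.12 beside -0.18 over all genes. An earlier look at these same sorted libraries picked the list, so its direction is not independent evidence. Ndrg4 fell most after Stra6 among these 15. It ran at 6.46 to 57 CPM (median 21.8) in the KO, against 395 and 469 CPM in group D (log2 fold change -4.18, SE 0.28, adjusted p = 8.65e-15). The calcium-binding S100a1 and the myosin light chain Myl6b fell by 3.12 and 3.28 on the log2 scale. Fam107a and Aldh1a2 fell by 3.55 and 3.38. The falls of Ano1, a chloride channel (-1.75, SE 0.27), Gsta2, a glutathione transferase (-1.60, SE 0.18), Rapgef5, an exchange factor for small GTPases (-1.30, SE 0.23), and Pcyt1b, an enzyme of phosphatidylcholine synthesis (-0.88, SE 0.17), were smaller. In each of these 9 genes the highest KO library lay below both group D libraries.

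Drd4, a dopamine receptor, did not pass. It ran at 88.0 to 189.6 CPM (median 139.7) in the KO and at 108 and 128 CPM in group D (log2 fold change 0.19, SE 0.32, adjusted p = 0.606), and the 2 sides overlapped. Slc16a3, a lactate exporter, ran at 22.6 to 90.1 CPM (median 47.9) in the KO and at 81.8 and 53.3 CPM in group D (log2 fold change -0.48, SE 0.28, adjusted p = 0.109), again with overlap. The 3 members outside the level rule were too low in the KO: Syt13, a synaptotagmin (2.15 to 7.39 CPM, median 3.75 in the KO, 61.6 and 82.6 CPM in group D), the membrane protease Tmprss6 (1.51 to 7.29 CPM, median 5.14 in the KO, 44.4 and 63.9 CPM in group D) and Clstn3, a calsyntenin (1.85 to 9.38 CPM, median 3.86 in the KO, 295 and 323 CPM in group D).

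The KO levels of these genes lay near different stages for different genes. Rhox5 averaged 75.7 CPM ± 19.5 in the KO (SD, n = 18), close to the 68.3 CPM of group A (stages XI-XII) and below the 156, 711 and 173 CPM of groups B (I-III), C (IV-VI) and E (IX-X). Ndrg4 at 25.6 CPM ± 13.0 lay between group A (18.7 CPM) and group E (35 CPM). Drd4 at 135 CPM ± 24.9 was nearest to group D (118 CPM ± 14.1, SD, n = 2), while groups A and B had 2.59 and 14.4 CPM. Prss35 at 344 CPM ± 45.7 was above every sorted group, the highest of which was group D at 60.5 CPM ± 33.8. These stage means are a description, with no test.

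**Figure D2:**
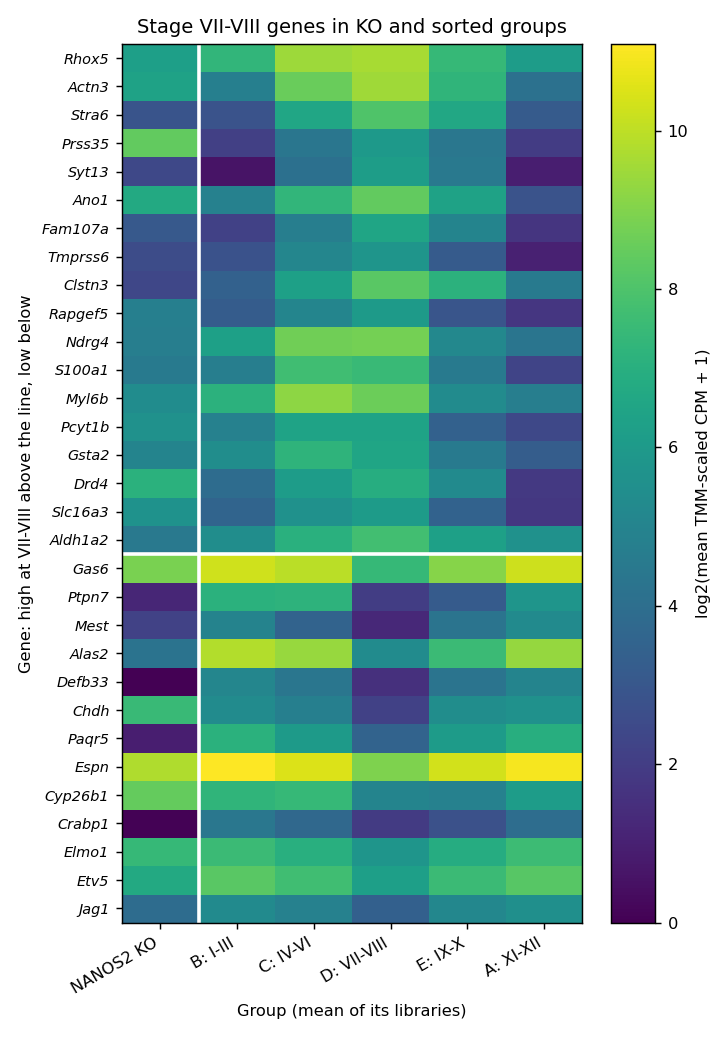
Mean level of 18 genes high and 13 genes low at stages VII-VIII (log2 of TMM-scaled CPM + 1) in 18 NANOS2 KO libraries and in the 5 sorted groups of 2 libraries each. In the KO column Rhox5, Actn3 and Stra6 are darker than in D and Prss35, Chdh and Cyp26b1 brighter.

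Of 13 genes at their lowest at stages VII-VIII, 7 met the level rule; 5 were higher in the KO, 1 lower and 1 not called, with a median of 0.84 beside -0.18 over all genes. This list too was picked on the sorted libraries. Cyp26b1, which degrades retinoic acid, ran at 238 to 563 CPM (median 354) in the KO and at 26.3 and 36.3 CPM in group D (log2 fold change 3.47, SE 0.22, adjusted p = 1.74e-11). Its KO mean of 357 CPM ± 85.5 also exceeded the highest sorted group, group C at 169.7 CPM. Gas6, a bridging ligand between dying cells and their receptors, ran at 329 to 621 CPM (median 461) in the KO and at 155 and 186 CPM in group D (log2 fold change 1.44, SE 0.16, adjusted p = 7.90e-08), and Elmo1, which drives engulfment inside the cell, at 79.2 to 238 CPM (median 173) in the KO and at 57.3 and 50.2 CPM in group D (log2 fold change 1.66, SE 0.21, adjusted p = 5.66e-07). Espn, an actin bundler of the ectoplasmic specialization, ran at 737 to 1034 CPM (median 882) in the KO and at 444 and 539.7 CPM in group D (log2 fold change 0.84, SE 0.13, adjusted p = 6.98e-06). For these 4 the sides did not overlap. In the KO, Gas6 (467 CPM ± 66.5, SD, n = 18) and Espn (885 CPM ± 89.6, SD, n = 18) averaged below the means of groups A, B, C and E, which were 1216, 1241, 976 and 545 CPM for Gas6 and 1974, 2183, 1476 and 1283 CPM for Espn.

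Alas2, the heme synthesis enzyme of red cells, fell (5.63 to 53.3 CPM, median 15.9 in the KO, 43.5 and 37.2 CPM in group D, log2 fold change -1.33, SE 0.37, adjusted p = 0.00184), with overlap, and Jag1, a Notch ligand, did not pass (0.50, adjusted p = 0.109). Etv5, a transcription factor of Sertoli cells and spermatogonia, passed at 0.45 (SE 0.18), adjusted p = 0.0314, and not without group D replicate 1 (adjusted p = 0.181) or replicate 2 (adjusted p = 0.101), with scaling by the Sertoli core list (adjusted p = 0.0756) or with limma voom (adjusted p = 0.12). The other 6 were outside the level rule. Chdh, which turns choline into betaine, ran at 136 to 247 CPM (median 181) in the KO and at 3.02 and 3.93 CPM in group D, and no sorted group mean exceeded 48.5 CPM. Mest, an imprinted hydrolase gene, had 1.33 to 6.34 CPM (median 3.61) in the KO and 1.29 and 1.51 CPM in group D. Defb33 had no count in the KO and 1.72 and 2.12 CPM in group D, Paqr5 0 to 2.64 CPM (median 0.716) in the KO and 7.75 and 13.3 CPM in group D, Crabp1, which binds retinoic acid in the cell, 0 to 0.504 CPM (median 0) in the KO and 1.72 and 3.93 CPM in group D, and Ptpn7 0 to 2.68 CPM (median 1.09) in the KO and 3.02 and 3.03 CPM in group D, all at or near the level of 3 counts on 1 side at least.

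The core list holds 35 genes by which Sertoli cells are known, and 31 met the level rule. Of these, 8 were higher in the KO, 15 lower and 8 not called, with a median of -0.11 beside -0.18 over all genes; with RLE scaling, which moves the median of all genes up by 0.11 on the log2 scale, the list's median was 0.0021. It was -0.04 without group D replicate 1 and -0.32 without replicate 2. For 13 of the 31 the 95% interval stayed within 2-fold in either direction, close to the share over all genes (3815 of 9878, 38.6%). They include factors of Sertoli cell fate. Sox9 ran at 109 to 200.3 CPM (median 162) in the KO and at 165 and 126 CPM in group D, with a log2 fold change of 0.07 (95% interval -0.37 to 0.51). Nr5a1, a nuclear receptor that Leydig cells express too, had 0.05 (95% interval -0.22 to 0.32), Sox8, a close relative of Sox9, -0.11 (-0.46 to 0.24) and Gata4 0.39 (0.03 to 0.76). Gata4 was not called (adjusted p = 0.0545) but passed in 9 of the other fits, among them RLE scaling (adjusted p = 0.0127) and DESeq2 (adjusted p = 0.00464). Wt1 was lower by 0.40 on the log2 scale (adjusted p = 0.012), a call lost without group D replicate 1 (adjusted p = 0.152) and with no filter (adjusted p = 0.0678).

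The rest of the 13 were genes of secretion, structure and signalling. Vim, the intermediate filament of Sertoli cells, had a log2 fold change of 0.16, the maestro gene Mro 0.25, the cystatin Cst12 0.40 and the prostaglandin synthase Ptgds -0.02, none of them called. Ptgds ran at 150.2 to 959 CPM (median 389) in the KO and at 489 and 309 CPM in group D, the widest span among the 13 as highest over lowest. Clu, the abundant secreted chaperone clusterin, ran at 8924 to 10580.0 CPM (median 9751) in the KO and at 7136 and 6794 CPM in group D and passed at 0.49 (SE 0.18), though not without either group D library (adjusted p = 0.0752 and 0.13). The inhibin subunit Inhbb (-0.53), the tight junction claudin Cldn11 (-0.40) and the hedgehog ligand Dhh (-0.50) were lower, and these calls were lost without group D replicate 2 (adjusted p = 0.119, 0.111 and 0.0713).

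Core genes outside that band moved in both directions. Kitl, the ligand of the germ cell receptor Kit, ran at 125 to 221 CPM (median 164) in the KO and at 33.6 and 25.4 CPM in group D (log2 fold change 2.47, SE 0.24, adjusted p = 1.31e-08), and the inhibin subunit Inha at 1025 to 1381 CPM (median 1179.8) in the KO and at 471 and 446 CPM in group D (log2 fold change 1.38, SE 0.15, adjusted p = 8.43e-08). Aard ran at 606 to 816 CPM (median 702) in the KO and at 2114 and 2058 CPM in group D (log2 fold change -1.55, SE 0.12, adjusted p = 2.91e-12). None of these sides overlapped. Amh, Fshr and Shbg, picked after their values were seen, rose by 1.53, 1.62 and 1.32, and Gata1, Dmrt1, Nr0b1 and Rhox8, picked likewise, fell by 1.62, 1.32, 1.86 and 1.82 on the log2 scale. The first 3 encode a hormone, the receptor for FSH and a carrier of sex steroids, and the other 4 encode transcription factors. The core list as a whole does not split by these classes. In the main fit the transcription factors Sox9, Sox8, Nr5a1 and Gata4 were not called, and Amhr2, the receptor of AMH, was lower. Gdnf, the growth factor of spermatogonial stem cells, was under 5 CPM in group D (20.1 to 40.0 CPM, median 30.5 in the KO, 1.29 and 2.42 CPM in group D).

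**Figure D3:**
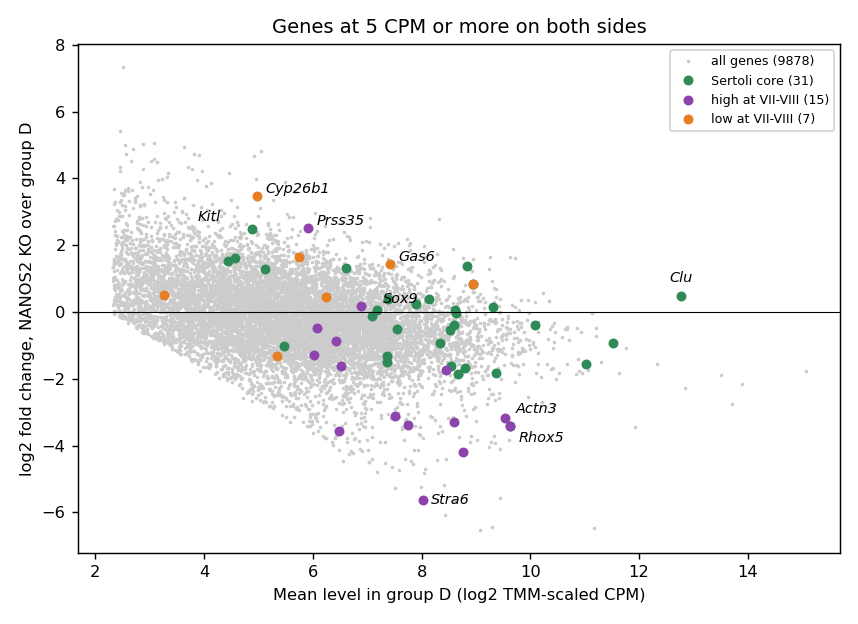
log2 fold change of NANOS2 KO over group D against the mean level in group D (log2 TMM-scaled CPM) for 9878 genes (grey), with Sertoli core genes (green), genes high (purple) and genes low (orange) at stages VII-VIII. Core genes scatter on both sides of 0 with a median of -0.11, and 12 of the 15 purple genes are called lower.

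Of 13 androgen-responsive Sertoli genes, 1 was higher, 8 were lower and 4 were not called, with a median of -1.01. Besides Rhox5 they include Tsx, a testis X-linked gene, at 97.1 to 187 CPM (median 140.1) in the KO and 525 and 362 CPM in group D (log2 fold change -1.68, SE 0.18, adjusted p = 6.48e-10). Eppin, a protease inhibitor of the sperm surface, and Tubb3, a beta-tubulin, fell by 1.63 and 1.53; both were picked after their values were seen. All KO libraries lay below group D in these 3. Rhox5, and Drd4 among the members not called, also stand in the list high at stages VII-VIII. That list was picked on the sorted libraries, so the direction of Rhox5 is not independent evidence. The 1 higher member, the smooth muscle myosin Myh11 (209.8 to 356 CPM, median 273 in the KO, 12.1 and 13.9 CPM in group D), is also a marker of peritubular myoid cells, whose 5 markers summed to 512 to 725 CPM in the KO and 47.8 and 64.5 CPM in group D; their part in its rise was not tested.

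Retinoid genes moved both ways. Of 16 at 5 CPM on both sides, 7 were higher, 5 lower and 4 not called, with a median of 0.25. On the side of uptake and synthesis, Stra6 was lower, as was Aldh1a2, which oxidises retinal to retinoic acid and ran at 11.3 to 57.6 CPM (median 20.4) in the KO and at 215 and 215 CPM in group D (log2 fold change -3.38, SE 0.28, adjusted p = 2.28e-12). Rdh11 and Rdh10, which interconvert retinol and retinal, fell by 1.75 and 1.59. Aldh1a1, another retinal oxidase of Sertoli cells that also stands in the Leydig list, rose instead. It ran at 1345 to 2416 CPM (median 1976) in the KO and at 616 and 612 CPM in group D (log2 fold change 1.66, SE 0.14, adjusted p = 1.62e-09). The 7 Leydig markers summed to 1852 to 5391 CPM in the KO and to 40.9 and 58.1 CPM in group D. Their part was not tested. Aldh1a3, a relative of Aldh1a1, was higher by 1.18 and Dhrs3, which returns retinal to retinol, by 2.37. Among the receptors, Rxra rose by 1.93 and Rxrb fell by 1.05, while Rara was not called (0.33, adjusted p = 0.0506). Cyp26a1, another degrading enzyme, was outside the level rule, with 0 to 1.62 CPM (median 0.354) in the KO and 19.4 and 24.8 CPM in group D, so the Cyp26 pair stood on opposite sides. The Rdh, Aldh1a3, Dhrs3, Rxr and Cyp26a1 values were picked after they were seen.

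**Figure D4:**
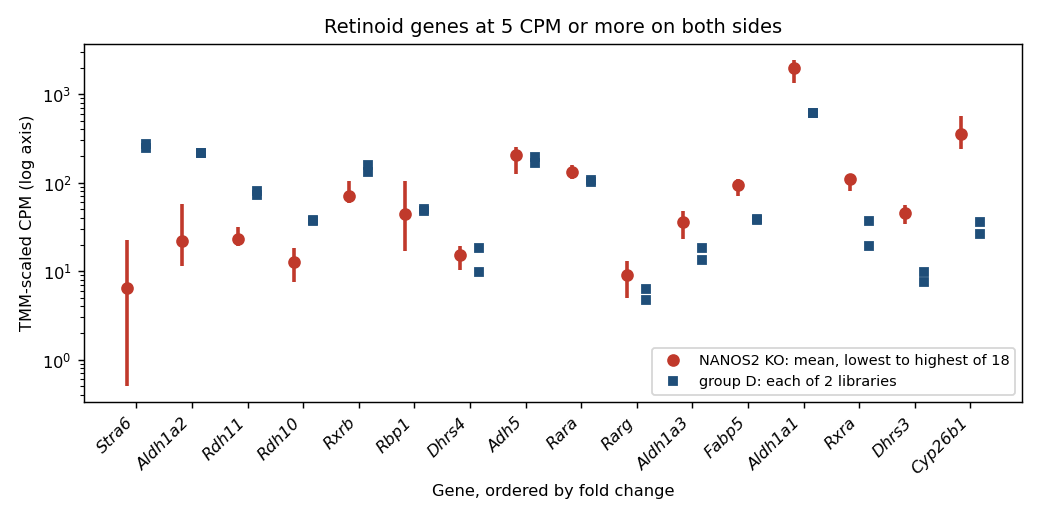
Level (TMM-scaled CPM, log axis) of the 16 retinoid genes at 5 CPM or more on both sides, ordered by fold change, as mean and span of 18 NANOS2 KO libraries (red) and as each of 2 group D libraries (blue squares). Stra6 and Aldh1a2 at the left lie below group D and Cyp26b1 at the right, with 238 to 563 CPM in KO, lies above it.

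Junction genes were mostly higher in the KO: of 20, 12 were higher, 5 lower and 3 not called, with a median of 0.84. Itga6, an integrin of adhesion to the basement membrane and of the apical junction, ran at 142 to 225 CPM (median 175) in the KO and at 22.8 and 23.9 CPM in group D (log2 fold change 2.89, SE 0.22, adjusted p = 1.64e-10). Ctnna1, the alpha-catenin that ties cadherins to actin, was higher by 0.98. Cldn3, a claudin of newly formed barrier, ran at 15.1 to 61.4 CPM (median 34.2) in the KO and at 119 and 134 CPM in group D (log2 fold change -1.88, SE 0.29, adjusted p = 3.42e-07), and Pvrl2, nectin 2 of the Sertoli side, was lower by 0.87. The KO libraries lay wholly on 1 side of group D in all 4. Junction genes are expressed by other testis cells too, whose markers were higher in the KO as given above; their part was not tested.

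Inhibin, activin, AMH and FSH genes had 6 of 10 members higher, 3 lower and 1 not called, with a median of 1.21. Acvr1, a type I receptor of the family, ran at 47.4 to 86.0 CPM (median 74.1) in the KO and at 15.9 and 13.3 CPM in group D (log2 fold change 2.32, SE 0.26, adjusted p = 6.33e-08). Fstl3, a secreted binder of activin, ran at 13.3 to 60.0 CPM (median 19.6) in the KO and at 224 and 196 CPM in group D (log2 fold change -3.22, SE 0.41, adjusted p = 5.99e-09), and Amhr2, the receptor of AMH, at 1239.5 to 2591 CPM (median 1477) in the KO and at 2440.2 and 3410.4 CPM in group D (log2 fold change -0.94, SE 0.16, adjusted p = 3.14e-06), where the sides of Amhr2 overlapped. Niche and Notch genes had 2 of 7 higher, 2 lower and 3 not called. Wnt6 was higher by 0.95, while the ligand Jag2 (-2.64) and the Notch target Hes1 (-1.48) were lower. A further 9 of the 21 genes of that list passed 5 CPM in the KO alone.

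Proteases and their inhibitors had 5 of 15 higher, 6 lower and 4 not called, with a median of 0.30; the lysosomal protease Ctsb was higher by 0.88, and the inhibitors Spink2, known from the acrosome, and Spint2 were lower (-4.24 and -1.54). Lysosome and phagocytosis genes had 13 of 23 higher, 5 lower and 5 not called, with a median of 0.64. Mertk, the receptor through which Gas6 signals the uptake of dying germ cells, ran at 147 to 179.8 CPM (median 166) in the KO and at 43.5 and 29.4 CPM in group D (log2 fold change 2.19, SE 0.20, adjusted p = 5.94e-09). Mfge8, the bridging ligand to integrins, ran at 147 to 225 CPM (median 178) in the KO and at 537 and 554 CPM in group D (log2 fold change -1.61, SE 0.19, adjusted p = 4.05e-09), and the autophagy gene Map1lc3b was lower by 1.08. Macrophages express Mertk and lysosomal genes; the 5 macrophage markers measured summed to 421 to 663 CPM in the KO and 2.59 and 0.605 CPM in group D, and their part was not tested.

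Most genes of energy metabolism were lower in the KO. Of 21 for glycolysis and lactate, 17 were lower, 1 higher and 3 not called, with a median of -0.94. Slc2a3, a glucose carrier, ran at 26.2 to 51.9 CPM (median 42.1) in the KO and at 711 and 679 CPM in group D (log2 fold change -4.09, SE 0.27, adjusted p = 4.73e-15), and Hk1, the first enzyme of glycolysis, at 43.6 to 62.5 CPM (median 58.0) in the KO and at 515 and 1037 CPM in group D (log2 fold change -3.82, SE 0.22, adjusted p = 4.44e-16). No KO library overlapped group D for either. The lactate carrier Slc16a1 was the 1 higher member (0.53, SE 0.18, adjusted p = 0.0151), a call lost without either group D library (adjusted p = 0.0515 and 0.15). Of 25 nuclear genes of oxidative phosphorylation, 22 were lower, 1 higher and 2 not called, with a median of -1.05; Cox5a and Atp5o fell by 2.14 and 1.76. Sdha was the higher one (0.31, adjusted p = 0.0297), not called without group D replicate 2 (adjusted p = 0.326), with scaling by the Sertoli core list (adjusted p = 0.108), with no filter (adjusted p = 0.0634) or with limma voom (adjusted p = 0.0617). Without group D replicate 2, 11 glycolysis and lactate genes were lower.

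All 13 mitochondrially encoded genes were lower, with a median of -1.77, and group D replicate 1 weighed on that count. Without it 7 of the 13 were lower, with a median of -0.91, and without replicate 2 all 13 were, with a median of -2.44. Together these genes gave 0.687 to 3.18% of all counts in the KO libraries, against 11.8% in group D replicate 1 and 4.04% in replicate 2. In 9 of the 13 the sides did not overlap, and limma voom called 12 lower. The gene mt-Nd2, a subunit of complex I, ran at 448 to 2526 CPM (median 2104) in the KO and at 21065 and 5593 CPM in group D, whose 2 libraries stood far apart.

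Germ cells use Slc2a3, Hk1 and the mitochondrial genes as well. The 4 elongating spermatid markers summed to 0 to 2.31 CPM in the KO and 1177 and 2036 CPM in group D, and the 4 spermatocyte markers to 0 to 2.01 CPM in the KO and 593 and 440 CPM in group D; their part in the energy genes was not tested.

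Cholesterol genes went the other way, with 11 of 20 higher, 4 lower and 5 not called, and a median of 1.14. Abca1, which exports cholesterol, ran at 503 to 859 CPM (median 688) in the KO and at 53.8 and 36.3 CPM in group D (log2 fold change 3.90, SE 0.21, adjusted p = 3.02e-12). The synthesis enzymes Fdft1 and Ebp fell by 1.06 and 0.73. Leydig cells make steroids from cholesterol, and their 7 markers summed to 1852 to 5391 CPM in the KO and 40.9 and 58.1 CPM in group D; their part was not tested. Phosphatidylcholine and lipid genes had 11 of 16 lower, 4 higher and 1 not called, with a median of -1.01; Dgat2, which makes triglycerides, and the lipase Lipe fell by 3.84 and 2.26, while the choline kinase Chka and the fatty acid binder Fabp5 were higher (1.13 and 1.27).

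Glutathione genes had 14 of 20 lower, 3 higher and 3 not called, with a median of -0.93. Within the mu class the members split. Gstm1 ran at 1860.4 to 3174 CPM (median 2602) in the KO and at 865 and 828 CPM in group D (log2 fold change 1.61, SE 0.17, adjusted p = 6.31e-08), Gstm7 at 363 to 465 CPM (median 424) in the KO and at 1417 and 1536 CPM in group D (log2 fold change -1.82, SE 0.13, adjusted p = 2.98e-13), and Gstm5 at 24.3 to 62.0 CPM (median 42.1) in the KO and at 709 and 594 CPM in group D (log2 fold change -3.91, SE 0.20, adjusted p = 6.65e-17). The genes of this class are alike in sequence, and how reads shared between them were counted is not given in the sources used here. Iron and heme genes had 6 of 13 higher, 3 lower and 4 not called: Alas1, the general heme synthesis enzyme, and the ferrireductase Steap3 were higher (2.57 and 2.02), and the heme oxygenases Hmox2 and Hmox1 lower (-2.25 and -0.95).

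Of 20 cytoskeleton genes, 11 were lower, 4 higher and 5 not called, with a median of -0.65. Tpm1 and Myh9, a tropomyosin and a myosin of contractile fibres, were higher (2.48 and 1.75), and the beta-tubulin Tubb4b, besides Actn3 and Myl6b, was lower (-2.58). Immediate early and dissociation stress genes, which can be switched on while tissue is taken apart, had 12 of 19 lower, 6 higher and 1 not called. Of this list, 7 were lower with scaling by the Sertoli core list. With RLE scaling, no filter, DESeq2 or limma voom, 8 were lower in each. Without group D replicate 1, 3 were higher, and without replicate 2, 2 were higher and 7 lower. The heat shock genes Hsp90aa1 and Dnajb1 fell by 2.85 and 2.04, and Ctgf and Fosl2 rose by 2.01 and 1.11. Group D cells were sorted and the KO testes were frozen whole, so that handling and group cannot be told apart.

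Interferon and MHC class I genes had 7 of 11 higher, 2 lower and 2 not called, with a median of 0.77. The class I gene H2-Q4 ran at 31.2 to 152 CPM (median 41.2) in the KO and at 8.62 and 11.2 CPM in group D and Stat2, a signal carrier of interferon, at 38.1 to 110.5 CPM (median 45.8) in the KO and 11.6 and 17.3 CPM in group D; the highest KO library was 49 dpi replicate 2 for both. Tapbp, which loads peptides, was lower by 0.71, and so was H2-D1 (adjusted p = 0.0174), a call lost without group D replicate 1 (adjusted p = 0.0836) or replicate 2 (adjusted p = 0.0925), with DESeq2 (adjusted p = 0.104), with limma voom (adjusted p = 0.0787) and with the KO as 1 group (adjusted p = 0.0576). Without either group D library, 4 members were higher and 1 lower. H2 genes are alike, so the assignment of their reads is uncertain. Clock genes had 7 of 15 higher, 3 lower and 5 not called; the repressor Per3 was higher (2.79), and the repressors Cry1 and Cry2 lower (-1.25 and -1.11). Cell cycle genes had 9 of 14 lower, 3 higher and 2 not called, with a median of -0.912. The median was -1.25 without group D replicate 1 and -0.585 without replicate 2. Cdkn1a, the p21 inhibitor, ran at 6.15 to 19.7 CPM (median 9.70) in the KO and at 254 and 283 CPM in group D (log2 fold change -4.69, SE 0.27, adjusted p = 8.49e-16), Mcm5, of the replication helicase, fell by 3.27, and the cyclins Ccnd2 and Ccnd3 rose by 2.50 and 1.22. A further 10 cell cycle genes passed 5 CPM in group D alone.

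**Figure D5:**
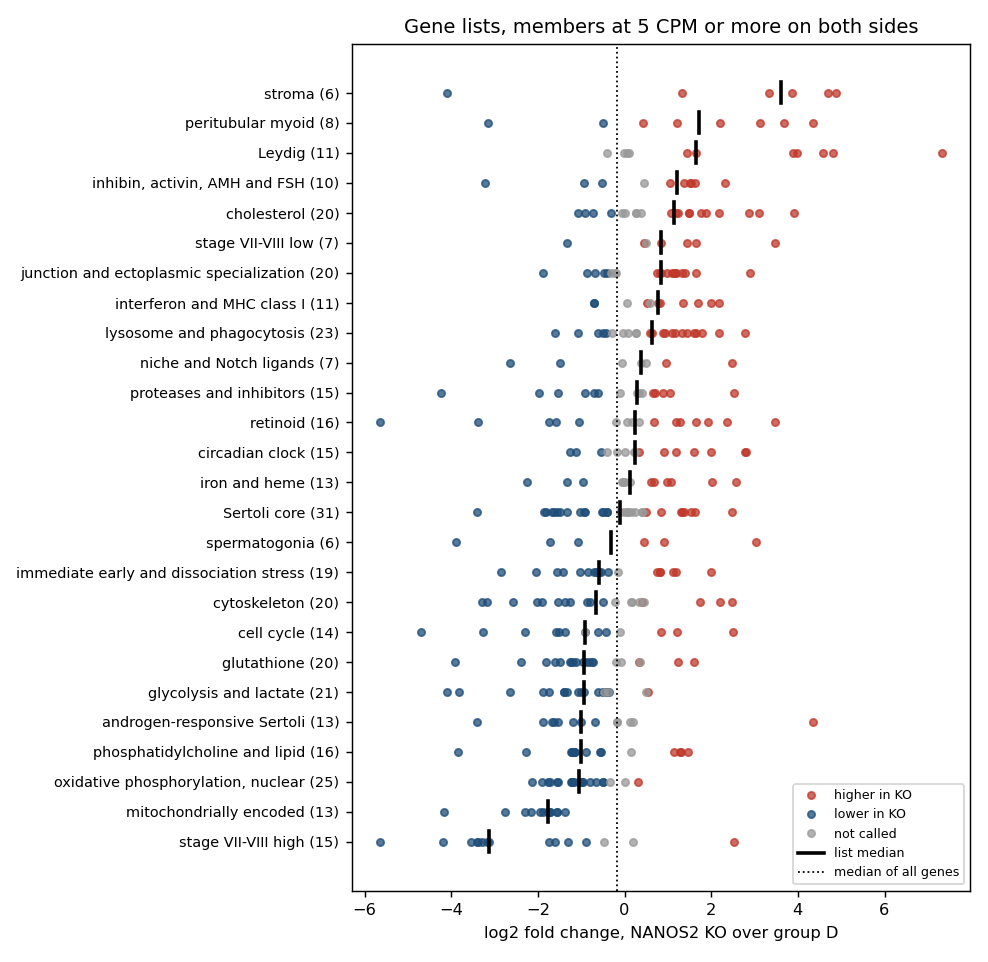
log2 fold change of NANOS2 KO over group D for each member at 5 CPM or more on both sides (number in brackets) of 26 gene lists, coloured by the edgeR call, with the list median (black bar) and the median of all 9878 genes (dotted, -0.18). Stage VII-VIII high genes, with a median of -3.12, and mitochondrially encoded genes, with -1.77 (-0.91 without group D replicate 1), lie at the low end, and stroma genes at the high end.

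The level rule did not remove transcripts of other cells. Of 17 Leydig genes 11 remained, with 7 higher, 0 lower by edgeR in the main fit and 4 not called. With the KO as 1 group or with the replicate block, 1 was lower. The count of lower genes also changed without group D replicate 1. It changed likewise without 42 dpi replicate 2, 43 dpi replicate 2, 49 dpi replicate 1 or 50 dpi replicate 1 of the KO. Akr1cl ran at 718 to 1317 CPM (median 882) in the KO and at 33.6 and 32.4 CPM in group D. Of 12 myoid genes 8 remained, with 6 higher (Acta2, 3.12) and 2 lower (Actg2, -3.15), and of 13 stroma genes 6, with 5 higher (Pdgfra, 3.87) and 1 lower (Fbln1, -4.09). Without group D replicate 2, the higher genes were 3 myoid and 3 stroma genes, and without replicate 1, 1 myoid gene was lower. The level rule was applied again to the libraries left. Of 12 endothelial genes 4 remained, with 3 higher, among them Cdh5 (1.5), 0 lower and 1 not called, and of 15 macrophage genes measured 3, with Cd74 higher (2.19) and Aif1 lower (-3.37). Of 18 spermatogonial genes 6 remained: Kit, which Leydig cells also carry, was higher (3.03), and Uchl1 lower (-3.90). Of spermatocyte, round and elongating spermatid genes, 3, 2 and 1 remained, and Hspa2 (-3.27), Crem (-2.83) and Odf2 (-2.56) were lower.

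The 8 largest rises, outside the lists of other cells, were led by Lama2, a laminin chain, at 145 to 334 CPM (median 232) in the KO and 7.32 and 3.63 CPM in group D (log2 fold change 5.43, SE 0.32, adjusted p = 1.56e-13). Next came Ltbp4, a binder of latent TGF-beta (5.05), the laminin chains Lamb1 (5.04) and Lamc3 (4.73), the collagen Col6a1 (5.01), the selenium carrier Sepp1 (4.94), the sodium pump regulator Fxyd1 (4.72) and Agt, angiotensinogen (4.67). These 8 ranged from 3.63 to 32.4 CPM in group D. The 8 largest falls were Stra6 and Dnaaf1, an assembly factor of cilia (-6.52), Phf7, a chromatin reader of spermatids (-6.43), Spata21 (-6.09), the lipid binder Osbp2 (-5.67), Sord, which makes fructose from sorbitol (-5.56), Fbp1, of gluconeogenesis (-5.26), and the deubiquitinase Usp2 (-5.25). In the KO they lay between 0.503 and 23.4 CPM. Unlike Stra6, the other 7 were high in every sorted group: Phf7, for one, averaged 625 CPM ± 11.2 in group D and 1049.7, 775, 557 and 1047 CPM in A, B, C and E. The germ cell and interstitial marker sums given above moved with these genes, and their part was not tested.

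Finally, the distance of each sorted library to the mean KO was taken as the root mean square log2 CPM difference over 9284 genes at 5 CPM or more in the KO and in every sorted group. It was 1.18 ± 0.111 for group D (SD, n = 2) and 1.24 ± 0.0795 for the other sorted libraries (SD, n = 8). The difference of -0.066 lay within the spread between libraries (exact permutation test, two-sided, p = 0.378; with 45 splits the smallest possible p is 0.0222). The 10 libraries are pairs from 5 stage groups, and with the group as the unit the smallest possible p is 0.2, so that a test over groups cannot pass 0.05. The difference was 0.00854 without group D replicate 1 and -0.152 without replicate 2, so that stages VII-VIII were not shown to lie nearer to the KO than other stages.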

How the data were processed

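Polyadenylated RNA was read on an Ion Proton from 18 NANOS2 KO whole testes and 10 sorted Sertoli libraries, per the labels' protocols. Per the submitters' processing notes, Bowtie, TopHat and Cufflinks were used with mm10; how reads were counted, with what annotation and whether by strand, is not given in the sources used here. Both deposited count tables hold raw counts per gene, and a second pair of tables, named FPKM, holds CPM that the authors computed, since each value matches the count over its library total to within 5e-04 CPM and gene length plays no part. A pair of KO count columns shared 1 header at 42 dpi and was told apart by the matching deposited CPM column. In 27 rows the symbol reads as a date (0.215 to 0.332% of counts); these rows go unnamed. GENCODE M21 of GRCm38 gave positions and holds 91.1% of the symbols.

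Counts were joined by symbol, filtered with filterByExpr over 14 groups, scaled with TMM (factors 1.07 to 1.14 in the KO, 0.863 and 0.864 in group D) and compared by the quasi-likelihood F test of edgeR 4.0.16, run under R 4.3.3. The contrast was the mean of the 9 KO days minus group D. P-values were adjusted by Benjamini-Hochberg over all 15777 genes tested, and an adjusted p under 0.05 was called. The biological coefficient of variation was 0.192. Levels are TMM-scaled CPM. SDs are over libraries.

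The comparison, its markers and the gene lists were chosen with earlier results of these data known. Named are Nanos2, the 4 markers, all members of both stage lists, the 8 largest rises and falls outside unnamed clones, ribosomal, mitochondrial and small RNA genes and the lists of other cells, up to 2 called members per list and direction with the smallest p (1 for lists of other cells), and core genes with a 95% interval within 2-fold; genes outside that rule are said to be picked after their values were seen. Some genes stand in several lists, and a few that the rule takes are not reported here. Promoter windows are from RefSeq and were found for 103 of the 139 named genes. Alternatives were RLE and core gene scaling, TMM without genes of other cells, no filter, DESeq2 1.42.0, limma 3.58.1 voom, other sets of libraries, a replicate block, other level limits and leaving out each library. No group has 4 or more libraries of 1 day or stage, so no library was screened as an outlier.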

Additional observations from a re-analysis of the deposited data

How the results depend on the processing

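The count of genes higher in the KO (2726 of 9878) ran from 1678 with 20 CPM asked on both sides, where the fewer genes that qualify account for it, to 3332 with the 20 libraries of the 2 sides alone, and the count of lower genes (3967) from 2746 to 4505 over the same level limits and fits. Leaving out single libraries gave 1938 to 2734 higher and 3116 to 4004 lower genes; the lowest of both came without group D replicate 2, and without replicate 1 they were 2398 and 3586. RLE scaling gave 3035 higher and 3589 lower and moved the median of all genes by 0.11 (log2), DESeq2 gave 3137 and 3565 with a shift of 0.111, limma voom 2375 and 3580, and scaling by core genes 2560 and 3594. The 49 dpi libraries, left out together as a setting chosen after seeing the data, gave 2738 and 3993. Samples that share a replicate number did not deviate together (correlations of -0.282 to 0.105 between group D and the 9 KO days). No pairing by number was seen, but such correlations cannot tell whether a batch was shared. The replicate block gave 2747 higher and 3968 lower. The distance of group D to the KO, relative to other sorted libraries (-0.066), turned to 0.00854 without group D replicate 1 and was -0.152 without replicate 2; it lay between -0.109 and -0.0411 under the other settings. With a library left out at a time it ran from -0.152 to 0.00854. The cause was not tested.

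Direction was compared between fits only for named genes called in the main fit or in the other fit. None of these changed direction. For a gene called in neither fit, a change of sign was not counted. The median of the 31 Sertoli core genes, for one, was -0.111 in the main fit and 0.00211 with RLE scaling. Of 138 named genes with a fit, 122 kept their side of the threshold in every fit and 16 did not. Besides those given in the text, Mest was lost in 12 fits, with voom or with a library left out, and Gata4, Mro, Cst12, Vim, Jag1 and Ptpn7 passed in some. With only 2 libraries of group D, these fits rest on a spread taken mostly from other groups. Replicate libraries lay farther apart in group D than on any KO day. Their chi-square of counts per degree of freedom was 20.2 in group D and 9.7 to 29.4 over the sorted groups. On KO days it ran from 1.76 at 48 dpi to 9.71 at 49 dpi. The pooled spread, and with it the SEs and p-values, may therefore be too small for group D. Members near 5 CPM rest on few reads, since 3 counts equal up to 2 CPM.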
